A study of Mus musculus with 6 samples.

Results

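The 10 genes described here encode the 9 nuclear subunits of respiratory complex III that the deposited table carries and somatic cytochrome c. They were taken from the table by gene symbol: Uqcrc1, Uqcrc2, Cyc1, Uqcrfs1, Uqcrb, Uqcrq, Uqcrh, Uqcr10, Uqcr11 and Cycs. All 10 were found among 26881 genes, and all 10 were among the 11017 that entered the test, for which a mean of 1 FPKM or more was required. FPKM counts fragments for each kilobase of exon, scaled to the library total. Hearts of mice at 2 weeks of age were measured by RNA-seq in 3 Cfp1-cKO and 3 WT samples. Cfp1-cKO mice were Myh6-Cre: Cfp1 flox/flox on the C57BL/6 background, which the labels call CXXC1 null, and WT hearts are labelled wild-type. Which floxed or Cre alleles the sequenced WT mice carried, and whether they were littermates of the Cfp1-cKO mice, is not given in the sources used here. Cre from the Myh6 promoter acts in cardiomyocytes, so the other cells of the heart keep the gene. Whether a sample pooled hearts is not given in the sources used here, and p-values therefore cover the spread between samples alone.

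Complex III, the cytochrome bc1 complex, sits in the inner mitochondrial membrane. It takes electrons from ubiquinol, the reduced form of coenzyme Q, passes them to cytochrome c and moves protons out of the matrix in the process. Cytochrome c is a small soluble protein that carries the electrons on to complex IV, and when it leaves the mitochondrion it binds Apaf1 and starts the caspase cascade of apoptosis. The beating heart depends on this chain for most of its ATP. Only cytochrome b, the product of mt-Cytb, comes from the mitochondrial genome, and every other subunit is made from nuclear genes and imported. Cfp1, encoded by Cxxc1, binds unmethylated CpG and belongs to the Setd1 complexes, which place methyl groups on lysine 4 of histone H3.

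Library totals worked back from the FPKM ranged from 16672652 to 19481847 fragments in Cfp1-cKO hearts and from 18007474 to 22700811 fragments in WT hearts. Cxxc1 had 8.02, 9.94 and 8.74 FPKM in Cfp1-cKO hearts, against 9.66, 12.9 and 10.03 FPKM in WT hearts. The groups overlapped, and the log2 fold change of -0.26 did not pass (adjusted p = 0.249, limma), and with scaling to cardiomyocyte markers its sign turned to 0.23. Defining cardiomyocyte markers were present in every library, with a summed level of 10762 to 14469 FPKM in Cfp1-cKO hearts and 13151 to 21640 FPKM in WT hearts over 12 genes, of which 5 fell and 0 rose (2 and 2 with scaling to the median of these markers). All 12 lung epithelium markers rose, with a summed level of 3393 to 5133 FPKM in Cfp1-cKO hearts and 0.394 to 4.07 FPKM in WT hearts, and in WT hearts Sftpc was at 0 in 2 of 3 libraries and Lamp3 in 3 of 3. The immune cell list summed to 405 to 788 FPKM in Cfp1-cKO hearts and 46.6 to 61.5 FPKM in WT hearts. Lyz2 alone made up most of every sum (Cfp1-cKO 387 to 771 FPKM, WT 36.0 to 56.0 FPKM), so the sums mainly describe this gene. Of 4 immune genes tested 3 were called higher (2 to 4 in each scaling tried). Their log2 fold changes were 3.60 for Lyz2, 1.13 for Cd68 and 0.81 for Csf1r. The extraction text of the labels speaks of retinas, and the photoreceptor markers summed to at most 0.150 FPKM in Cfp1-cKO hearts and 0.0636 FPKM in WT hearts. Of 5 atrial markers 3 fell and 1 rose (2 or 3 fell in each scaling tried), with a summed level of 347 to 642 FPKM in Cfp1-cKO hearts and 855 to 1523 FPKM in WT hearts. The 6 fibroblast markers summed to 337 to 527 FPKM in Cfp1-cKO hearts and 232 to 298 FPKM in WT hearts. The 6 erythroid markers summed to 233 to 1889.9 FPKM in Cfp1-cKO hearts and 59.8 to 1007 FPKM in WT hearts, which overlapped. Of the 6 fibroblast markers 0 were called by limma, 2 rose by voom and 4 were higher at an unadjusted p below 0.05, and of 5 erythroid markers tested 0 were called by limma or voom and 1 was higher at an unadjusted p below 0.05. With scaling to cardiomyocyte markers 5 of each list rose, against 7583 of all 11017 tested genes. These values stand beside each result below, and their part in the results was not tested. In bulk tissue, fewer cardiomyocytes and less RNA per cardiomyocyte cannot be told apart.

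Promoters were looked up because Cfp1 binds CpG. RefSeq promoter windows on GRCm38.p6, 250 bases before to 50 bases after the start of the gene, matched 6 of the 10 genes: Cycs, Uqcrfs1, Uqcr11, Uqcrc1, Uqcrh and Uqcr10. Uqcrc2, Uqcrb, Uqcrq and Cyc1 had no entry. The window of 300 bases held 32 CpG in Cycs, 31 in Uqcrfs1, 16 in Uqcr11, 15 in Uqcrc1, 15 in Uqcrh and 13 in Uqcr10, against a median of 7 (quartiles 3 and 20) over 32851 windows of 27025 genes. All 6 therefore lay above the median of all windows, and Cycs and Uqcrfs1 lay above the upper quartile. The 250 upstream bases of the richest and the poorest of the 6 windows are shown, 5′ to 3′, with each CpG in capitals.
Cycs, chr6:50566570-50566819, minus strand: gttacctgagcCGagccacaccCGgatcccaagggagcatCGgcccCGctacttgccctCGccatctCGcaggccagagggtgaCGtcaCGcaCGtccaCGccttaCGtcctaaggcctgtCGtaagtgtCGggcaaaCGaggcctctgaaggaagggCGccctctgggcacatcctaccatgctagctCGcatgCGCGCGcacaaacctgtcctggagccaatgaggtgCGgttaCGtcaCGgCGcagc
Uqcr10, chr11:4704345-4704594, minus strand: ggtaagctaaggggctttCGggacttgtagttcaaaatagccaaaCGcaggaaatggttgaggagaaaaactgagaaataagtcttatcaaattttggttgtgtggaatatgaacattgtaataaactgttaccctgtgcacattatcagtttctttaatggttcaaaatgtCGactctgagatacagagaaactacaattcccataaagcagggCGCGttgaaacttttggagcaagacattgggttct

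The Cycs stretch holds 23 CpG spread along its length, and the Uqcr10 stretch holds 5 in an otherwise AT-rich sequence. The windows were also searched on both strands, with overlapping matches counted, for exact letters of factors known for respiratory genes, none of which contains another. These were GCGCANGCG (NRF1), CCGGAAG (GABPA), TCAAGGTCA (ERR), AAGATGGCG (YY1) and GGGGCGGGG (SP). NRF1 letters were in 3 of the 6 windows (Cycs, Uqcr11 and Uqcrc1) and in 6.25% of all windows, or in 1 of the 6 (Uqcrc1) and 4.60% of all where a further C was required at the 3′ end. GABPA letters were in 2 of the 6 (Uqcr11 and Uqcrh) and in 8.86% of all. The ERR, YY1 and SP letters were in 0 of the 6, and in 0.423%, 1.40% and 11.4% of all windows. The matches are shown in stretches of 30 bases with the matched letters in capitals, 1 per gene and motif.
Cycs with NRF1 match, chr6:50566611-50566640, minus strand: catgctagctCGCATGCGCgcgcacaaacc
Uqcrc1 with NRF1 match, chr9:108936668-108936697, plus strand: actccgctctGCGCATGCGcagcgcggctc
Uqcr11 with NRF1 match, chr10:80406807-80406836, minus strand: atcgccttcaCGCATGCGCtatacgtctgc
Uqcr11 with GABPA match, chr10:80406869-80406898, minus strand: ttctctcctccCCGGAAGtagatgtcaatg
Uqcrh with GABPA match, chr4:116075062-116075091, minus strand: agtatgccgcaCTTCCGGccaggtcgccgg

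Counted from the first base of the RefSeq gene as 1, with no 0, the NRF1 letters of Cycs run from -61 to -53, those of Uqcrc1 from 31 to 39 and those of Uqcr11 from -5 to 4, and the GABPA letters of Uqcr11 from -66 to -60 and of Uqcrh from -10 to -4. Uqcrc1 had the NRF1 letters also at 7 to 15 and at 32 to 40, both on the strand opposite to those at 31 to 39. A match is a description of these letters and not a binding site.

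The complex III and cytochrome c genes differed in how far Cfp1-cKO hearts stood from WT hearts. Uqcrq and Cycs fell, 0 of the 10 rose (limma, and 0 also at an unadjusted p below 0.05 and with voom), and Cyc1, Uqcr11 and Uqcrc2 were within 0.2 log2 units of WT hearts. At an unadjusted p below 0.05 from limma 6 were lower. The share of all tested genes past that threshold was not computed, so this count and those of other lists have no background. The 2 calls are read against 1.68% of all tested genes called lower and 21.1% called higher. The log2 fold change on log2(FPKM + 1) was below 0 for 10 of 10 genes, against 16.4% of all tested genes. With the same sum per library it was below 0 for 8 of 10, against 1264 of all 11017 tested genes. With scaling to cardiomyocyte markers it was below 0 for 3 of 10, against 422 of 11017. As deposited, its median was -0.44 over the 10 genes and 0.35 over all tested genes. All 10 genes averaged 50 FPKM or more, whereas the shares of all tested genes include lower levels. Tested genes averaging 50 FPKM or more had a median of -0.061 where the exon length was under 1000 bases. From 1000 to 2000 bases it was -0.029, and at 2000 bases and over 0.045. The 3 Cfp1-cKO values lay below the 3 WT values for 4 of the 10, Uqcrc1, Uqcrfs1, Uqcrq and Cycs, against 3.23% of all tested genes. Because the median tested gene was higher in Cfp1-cKO hearts, a second scaling, by median of ratios, was also run, which moved that median to 0.00 and changed the calls over all genes from 2325 higher and 185 lower to 411 higher and 358 lower. With this scaling the same 4 genes were called lower, against 3.25% of all tested genes, and the median of the 10 was -0.89. It divides Cfp1-cKO values by 1.06 to 1.23 and WT values by 0.817 to 0.908, which lowers the fold change of every tested gene. The share called lower among genes at the level of the 10 was not computed. With scaling to cardiomyocyte markers 0 of the 10 were called, and their median was 0.090. Over all 11017 tested genes this scaling called 7583 higher and 54 lower, and the median was 0.77. The factors of this scaling ran from 0.717 to 0.976 in Cfp1-cKO and from 0.940 to 1.38 in WT libraries. With it the SE of Uqcrc1 was 0.30, against 0.16 as deposited, and 5 of its 12 markers fell as deposited. On the deposited scale, the number called lower was 1 without Cfp1-cKO replicate 1, 0 without Cfp1-cKO replicate 2, Cfp1-cKO replicate 3 or WT replicate 1, 2 without WT replicate 2 and 3 without WT replicate 3. The summed level of the 10 genes was 2912, 2737 and 2602 FPKM in Cfp1-cKO hearts, against 3718, 3842 and 3202 FPKM in WT hearts, so the sums did not overlap.

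**Figure D1:**
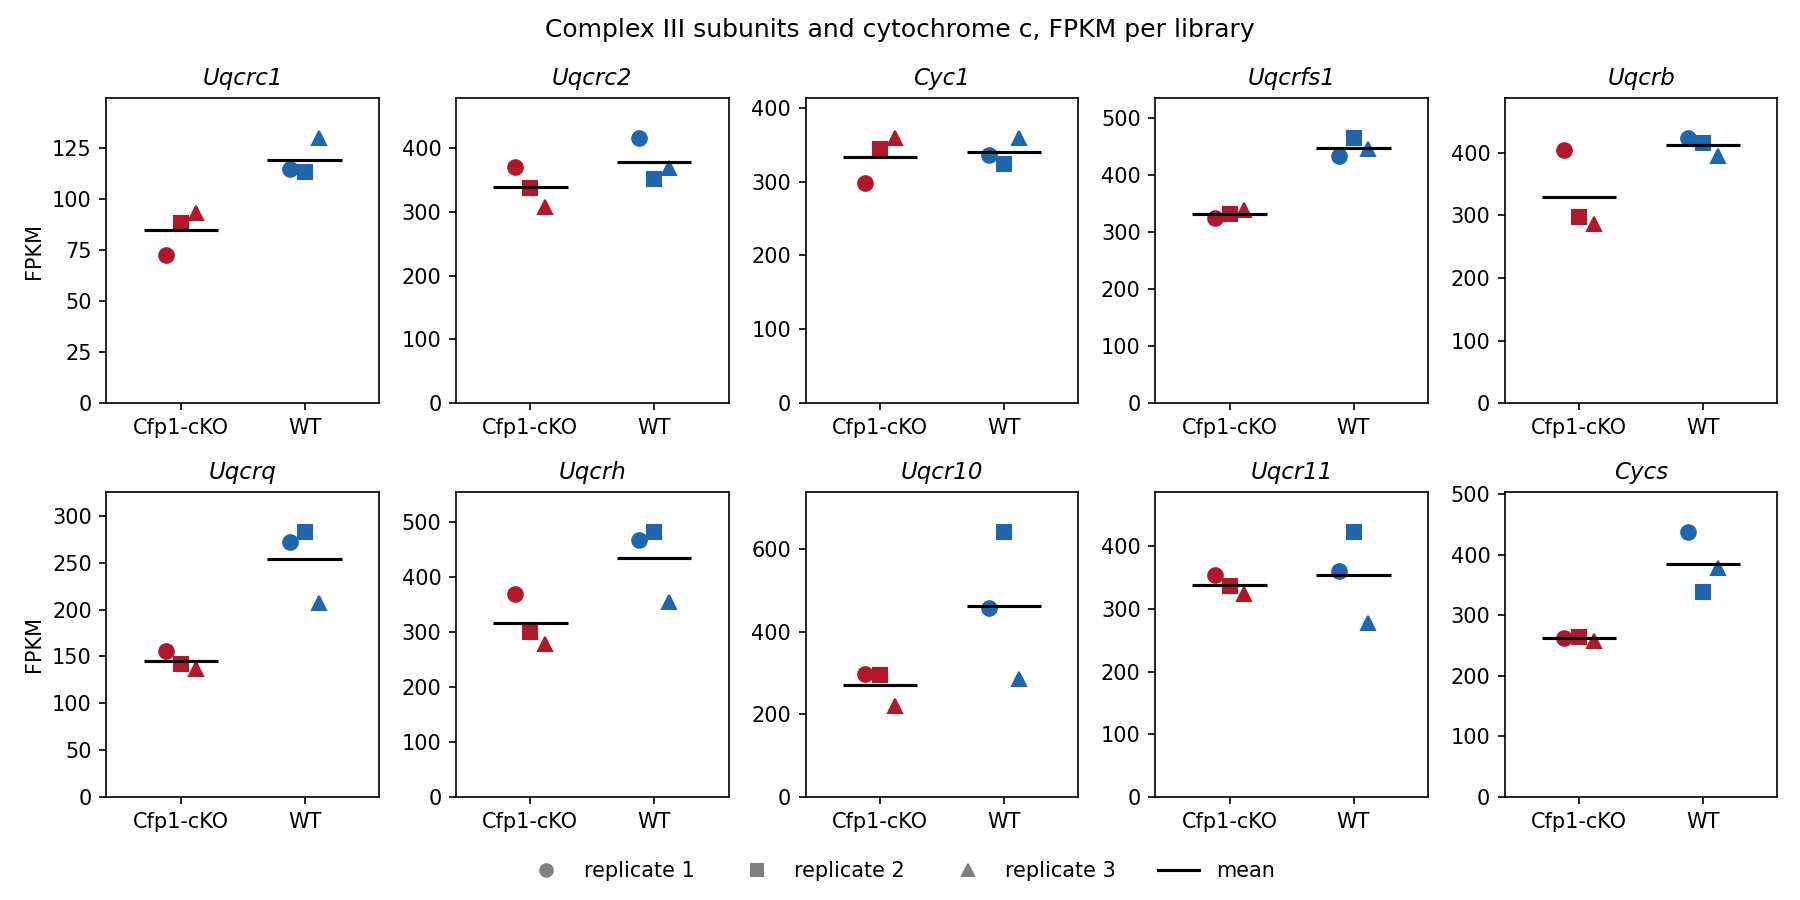
FPKM (vertical axes, each from 0) of the 10 genes in the 3 Cfp1-cKO libraries (red, left) and the 3 WT libraries (blue, right), with the replicate as marker shape and the mean as a bar. The groups stand apart for Uqcrc1, Uqcrfs1, Uqcrq and Cycs, and in WT hearts Uqcr10 spreads from 287 to 643 FPKM.

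The catalytic subunits carry the redox groups of the complex: cytochrome b, cytochrome c1 and the Rieske protein. mt-Cytb, which holds both sites where ubiquinone binds, had 49070, 40862 and 38336 FPKM in Cfp1-cKO hearts, against 48918, 54387 and 46931 FPKM in WT hearts. Replicate 1 of Cfp1-cKO lay inside the WT range, and the log2 fold change was -0.23 (SE 0.18, adjusted p = 0.341, limma), or 0.30 with scaling to cardiomyocyte markers. Cyc1 (ENSMUSG00000022551, chromosome 15 from 76343523 to 76345934, GRCm38) encodes cytochrome c1, the haem subunit that hands the electron to cytochrome c. It had 298, 343 and 358 FPKM in Cfp1-cKO hearts, against 336, 324 and 359 FPKM in WT hearts. These ranges overlapped, with Cfp1-cKO replicate 1 below every WT value. The log2 fold change was -0.031 with a 95% interval from -0.37 to 0.30 (adjusted p = 0.880, limma). Its sign turned to 0.087 with the same sum per library and to 0.50 with scaling to cardiomyocyte markers, and also without Cfp1-cKO replicate 1 (0.047) or WT replicate 3 (0.0097) and with library weights (0.0036). Uqcrfs1 (ENSMUSG00000038462, chromosome 13 from 30540308 to 30545362) encodes the Rieske iron-sulphur protein, which takes the first electron from ubiquinol. It had 324, 331 and 339 FPKM in Cfp1-cKO hearts, against 432, 465 and 444 FPKM in WT hearts. The replicates were tight and the groups stood apart, with a mean of 331 ± 7.31 FPKM in Cfp1-cKO and 447 ± 16.4 FPKM in WT hearts (SD, n = 3 each). The log2 fold change of -0.43 (SE 0.14) missed the threshold (adjusted p = 0.0511, limma) and was -0.87 after median-of-ratios scaling (adjusted p = 0.0218, limma, with a range from 0.00913 to 0.762 over 12 alternatives). Its sign turned to 0.10 with scaling to cardiomyocyte markers.

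Uqcrc1 and Uqcrc2 encode the core proteins that face the matrix and are related to the mitochondrial processing peptidase. Uqcrc1 (ENSMUSG00000025651, chromosome 9 from 108936633 to 108949623) had 72.4, 88.4 and 93.0 FPKM in Cfp1-cKO hearts, against 115, 113 and 129.9 FPKM in WT hearts. All 3 Cfp1-cKO values lay below the lowest WT value. The log2 fold change of -0.50 (SE 0.16) missed the threshold (adjusted p = 0.0513, limma) and was -0.94 after median-of-ratios scaling (adjusted p = 0.0112, limma, with a range from 0.0107 to 0.915 over 12 alternatives) and 0.035 with scaling to cardiomyocyte markers. Uqcrc2 (ENSMUSG00000030884, chromosome 7 from 120635176 to 120659524), its partner in the core, had 371, 338 and 308 FPKM in Cfp1-cKO hearts, against 417, 353 and 369 FPKM in WT hearts. The groups overlapped, and the log2 fold change was -0.16 with a 95% interval from -0.51 to 0.19 (adjusted p = 0.425, limma), turning to 0.37 with scaling to cardiomyocyte markers. The partners thus had unlike point estimates, and within a library the ratio of Uqcrc1 to Uqcrc2 was 0.195, 0.261 and 0.302 in Cfp1-cKO hearts, against 0.275, 0.321 and 0.352 in WT hearts, which overlapped.

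The remaining 5 subunits are small proteins without a redox group. Uqcrq (ENSMUSG00000044894, chromosome 11 from 53427922 to 53430831) encodes subunit 8, which binds next to cytochrome b and is needed early in the assembly of the yeast complex. It had 156, 142 and 137 FPKM in Cfp1-cKO hearts, against 272, 283 and 207 FPKM in WT hearts. The groups stood apart, and the Cfp1-cKO mean was 57.0% of the WT mean. Uqcrq fell, with a log2 fold change of -0.80 (SE 0.17, adjusted p = 0.0177, limma), the most negative of the 10. The call held after median-of-ratios scaling (-1.24) and was lost with scaling to cardiomyocyte markers (-0.26, adjusted p = 0.467, limma, with a range from 0.000707 to 0.467 over 12 alternatives). It was also lost without Cfp1-cKO replicate 2 (-0.78, adjusted p = 0.0706, limma), Cfp1-cKO replicate 3 (-0.76, adjusted p = 0.0539, limma) or WT replicate 1 (-0.74, adjusted p = 0.0705, limma).

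Uqcrb, Uqcrh, Uqcr10 and Uqcr11 did not pass the test. Uqcrb (ENSMUSG00000021520, chromosome 13 from 66900617 to 66905378), which encodes the ubiquinone-binding subunit 7, had 405, 298 and 286 FPKM in Cfp1-cKO hearts, against 424, 416 and 395 FPKM in WT hearts. Cfp1-cKO replicate 1 alone reached the WT range, and the log2 fold change was -0.34 (SE 0.17, adjusted p = 0.163, limma). Uqcrh (ENSMUSG00000063882, chromosome 4 from 116066965 to 116075071), the acidic hinge protein beside cytochrome c1, had 369, 300.2 and 279 FPKM in Cfp1-cKO hearts, against 468, 483 and 355 FPKM in WT hearts. Here Cfp1-cKO replicate 1 lay above WT replicate 3, and the log2 fold change was -0.46 (SE 0.18, adjusted p = 0.0937, limma). With scaling to cardiomyocyte markers the sign turned for both, to 0.20 for Uqcrb and 0.076 for Uqcrh. Uqcr10 (ENSMUSG00000059534, chromosome 11 from 4701973 to 4704342), which encodes subunit 9, had 298, 294 and 221 FPKM in Cfp1-cKO hearts, against 457, 643 and 287 FPKM in WT hearts. Its WT values spread more than those of any other of the 10, and the log2 fold change of -0.70 had a 95% interval from -1.36 to -0.053 (adjusted p = 0.0947, limma). Without WT replicate 3, the lowest WT library, Uqcr10 was called at -1.01 (adjusted p = 0.0203, limma) and Uqcrh at -0.60 (adjusted p = 0.0458, limma). Uqcr11 (ENSMUSG00000020163, chromosome 10 from 80402997 to 80406830), which encodes subunit 10, had 355, 336 and 324 FPKM in Cfp1-cKO hearts, against 359.8, 424 and 278 FPKM in WT hearts. All 3 Cfp1-cKO values lay inside the WT range, and the log2 fold change was -0.044 with a 95% interval from -0.46 to 0.37 (adjusted p = 0.863, limma). Its sign turned to 0.074 with the same sum per library, 0.49 with scaling to cardiomyocyte markers and 0.096 without WT replicate 2.

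**Figure D2:**
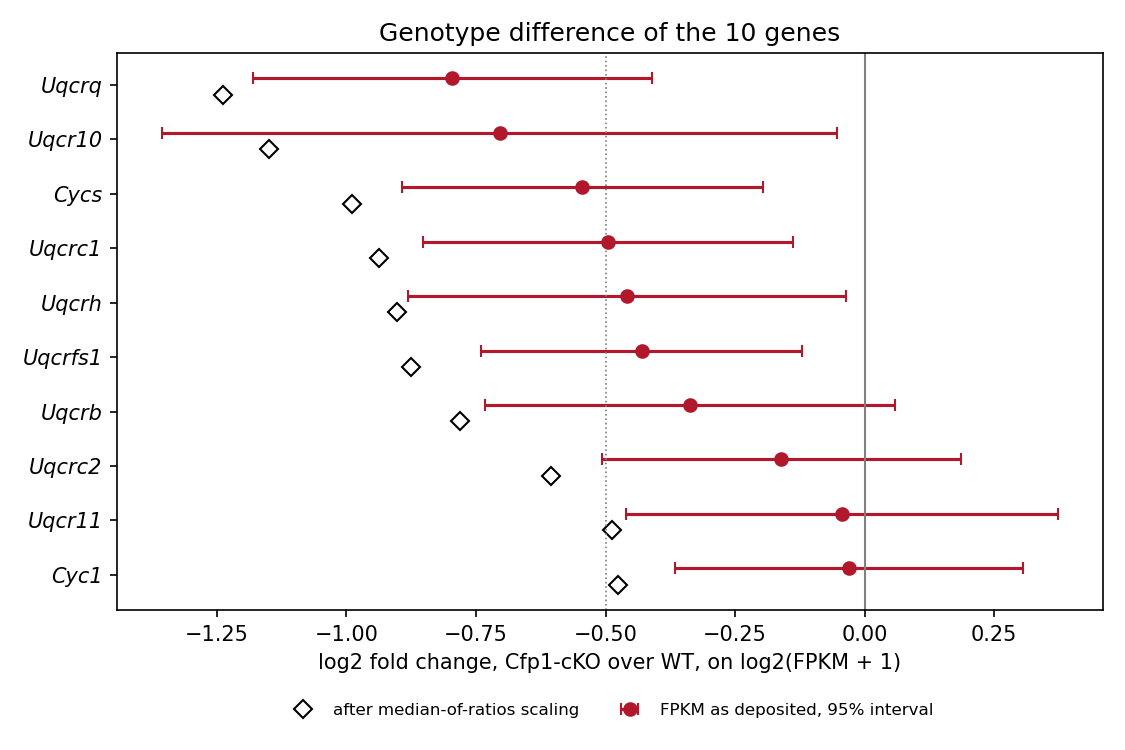
Log2 fold change of each gene, Cfp1-cKO over WT, on log2(FPKM + 1) (horizontal axis), with its 95% interval from limma (red) and the value after median-of-ratios scaling (open diamonds); the dotted line is the fold threshold of -0.5. As deposited the 10 values run from -0.80 for Uqcrq to -0.031 for Cyc1, and scaling to cardiomyocyte markers, not drawn, turned the sign of 7 of them.

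Cycs (ENSMUSG00000063694, chromosome 6 from 50562563 to 50566538) encodes somatic cytochrome c. It had 263, 264 and 258 FPKM in Cfp1-cKO hearts, against 438, 338 and 378 FPKM in WT hearts. The Cfp1-cKO values lay close together and below all WT values, with means of 262 ± 3.36 FPKM in Cfp1-cKO and 384 ± 50.6 FPKM in WT hearts (SD, n = 3 each). Cycs fell, with a log2 fold change of -0.54 (SE 0.15, adjusted p = 0.0373, limma), and after median-of-ratios scaling the difference was -0.99. The direction held in every alternative tried, but the call was lost with no filter (adjusted p = 0.0668, limma), with the same sum per library (-0.43) and with scaling to cardiomyocyte markers (-0.010), over 12 alternatives whose adjusted p from limma ranged from 0.00134 to 0.976. It was also lost without Cfp1-cKO replicate 1 (adjusted p = 0.0695, limma), Cfp1-cKO replicate 2 (0.119), Cfp1-cKO replicate 3 (0.0928), WT replicate 1 (0.145) or WT replicate 3 (0.0521), and held without WT replicate 2. Cyct, the cytochrome c of the testis, had 0, 0.0916 and 0.0847 FPKM in Cfp1-cKO hearts, against 0.269, 0.243 and 0.424 FPKM in WT hearts, and was not tested. The table held 12 further genes and pseudogenes annotated to proteins of this group, Cyct among them, and none was above 5.82 FPKM in any library. Fragments shared between them and the 10 genes cannot be told apart in these values.

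Levels of different genes were set side by side as FPKM, which is per length. In Cfp1-cKO hearts Uqcrc2, Uqcr11, Cyc1, Uqcrfs1, Uqcrb and Uqcrh had means between 316 and 339 FPKM, followed by Uqcr10 at 271, Cycs at 262, Uqcrq at 145 and Uqcrc1 at 84.6 FPKM. In WT hearts the order was Uqcr10 at 462, Uqcrfs1 at 447, Uqcrh at 436, Uqcrb at 412, Cycs at 384, Uqcrc2 at 379, Uqcr11 at 354, Cyc1 at 339.8, Uqcrq at 254 and Uqcrc1 at 119 FPKM. In Cfp1-cKO hearts the ranges of Uqcrq and Uqcrc1 stood apart from each other and from all others, and in WT hearts Uqcrc1 stood apart from all others and Uqcrq overlapped Uqcr11 alone. Each pair of neighbours among the other 8 genes overlapped in range in both orders, so neighbours are not told apart, whereas genes further apart did not always overlap. The levels depend on the exon length behind each FPKM, which was 4135 bases for Uqcrc1 and 1831 for Uqcrq, against 1653 bases for the principal transcript of Uqcrc1 and 405 and 1521 bases for the 2 principal transcripts of Uqcrq. For Uqcrfs1 the length used and the principal transcript are both 1363 bases. The order at other lengths was not computed.

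Ratios within a library do not depend on the scaling between libraries. Relative to Cyc1, Uqcrc1 was at 0.243, 0.257 and 0.260 in Cfp1-cKO hearts, against 0.341, 0.349 and 0.362 in WT hearts. Uqcrfs1 over Cyc1 was 1.09, 0.965 and 0.945 in Cfp1-cKO hearts, against 1.29, 1.43 and 1.24 in WT hearts. In both, the highest Cfp1-cKO ratio lay below the lowest WT ratio. Uqcrq over Cyc1 was 0.523, 0.413 and 0.382 in Cfp1-cKO hearts, against 0.811, 0.874 and 0.576 in WT hearts. Cycs, the electron acceptor of cytochrome c1, over Cyc1 was 0.882, 0.770 and 0.720 in Cfp1-cKO hearts, against 1.31, 1.04 and 1.05 in WT hearts. These 4 ratios were lower in every Cfp1-cKO library than in any WT library, and the other 5 overlapped. The same 4 genes also stood apart in FPKM, and Cyc1 had the smallest change of the group. The share of all tested genes whose ratio to Cyc1 stood apart was not computed. Over Uqcrc2, the ratios of Uqcrq (0.428 ± 0.0138 in Cfp1-cKO and 0.673 ± 0.123 in WT hearts) and Cycs (0.775 ± 0.0647 in Cfp1-cKO and 1.01 ± 0.0483 in WT hearts, SD, n = 3 each) stood apart as well. With 3 against 3 libraries an exact permutation test cannot go below a two-sided p of 0.1, so these ratios are given without one. A ratio shows unequal change and not which of its 2 genes moved.

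**Figure D3:**
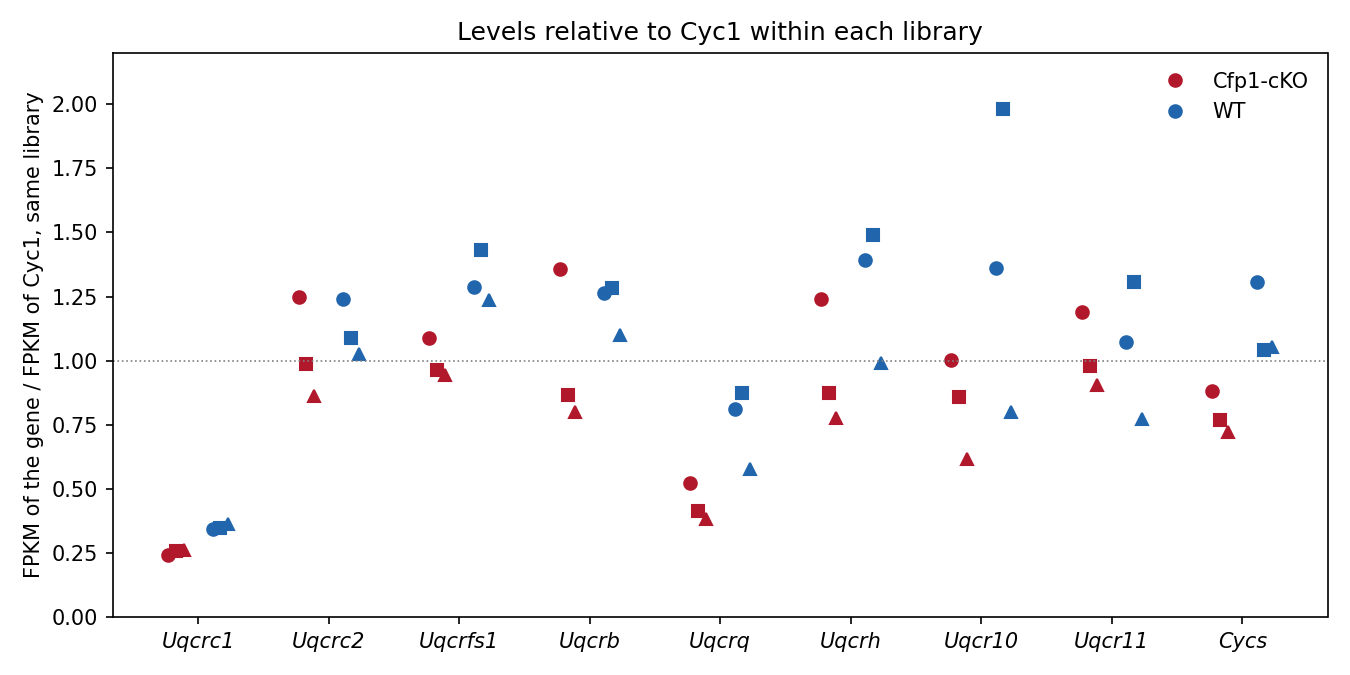
FPKM of each gene divided by the FPKM of Cyc1 in the same library (vertical axis, from 0), for Cfp1-cKO (red, left) and WT (blue, right), with the replicate as marker shape. Uqcrc1, Uqcrfs1, Uqcrq and Cycs are lower in all 3 Cfp1-cKO libraries than in any WT library, and the other 5 overlap.

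The genes also differed in how they spread among replicates. Uqcr10 and Uqcr11, with the shortest exon lengths (584 and 641 bases), were highest in WT replicate 2, at 0.55 and 0.28 log2 units above the WT mean, and lowest in WT replicate 3, at -0.61 and -0.33. Uqcrc1 and Cyc1 ran the other way, at 0.13 and 0.081 in WT replicate 3. In Cfp1-cKO hearts Uqcrb and Uqcrh were 0.31 and 0.23 above the mean in replicate 1, where Uqcrc1 and Cyc1 were at -0.21 and -0.16. Across 95 genes averaging 50 FPKM or more whose exon length was under 1000 bases, the median deviation was 0.15, 0.069 and -0.21 in Cfp1-cKO replicates 1, 2 and 3, and 0.081, 0.18 and -0.27 in WT replicates 1, 2 and 3. Across 327 genes of 2000 bases and over it stayed between -0.023 and 0.026 in all 6 libraries. Exon length thus moved with the spread of the short genes, and its part in their values was not tested.

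**Figure D4:**
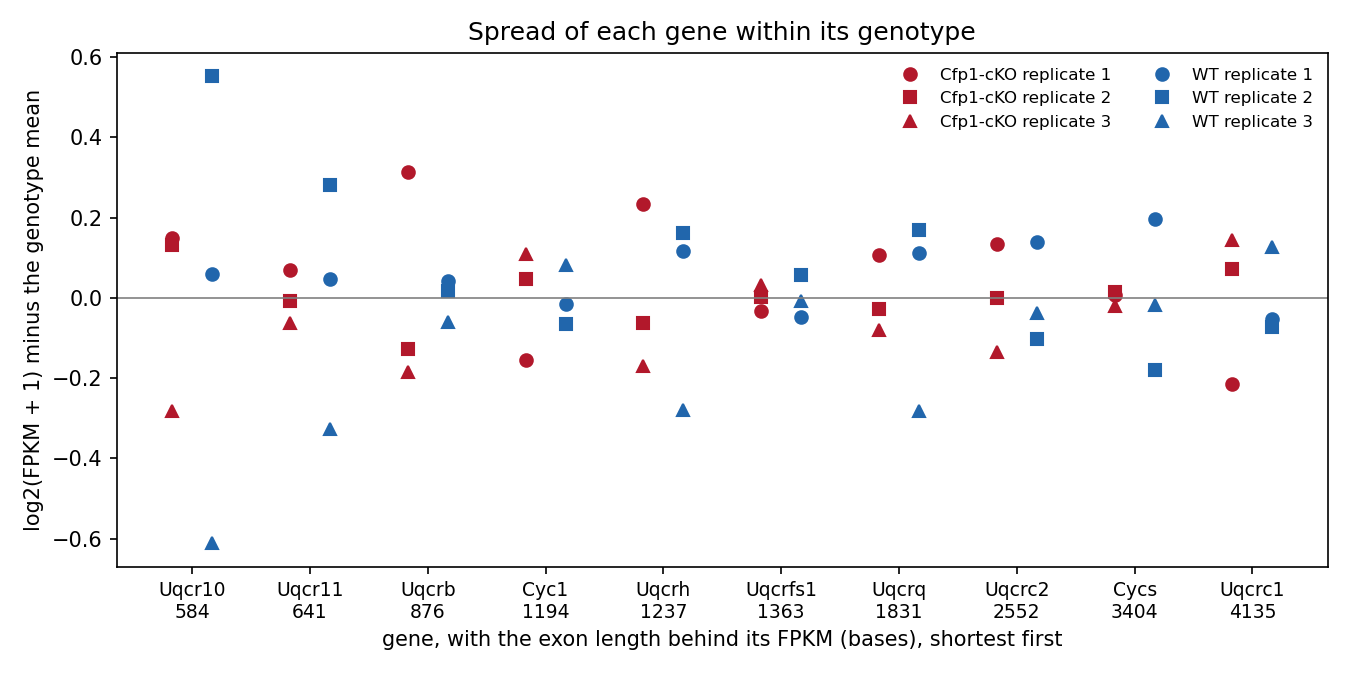
Deviation of each library from its genotype mean, in log2(FPKM + 1) (vertical axis), for the 10 genes in order of exon length (horizontal axis), for Cfp1-cKO (red) and WT (blue) with the replicate as marker shape. Uqcr10, the shortest, spreads from -0.61 to 0.55 in WT, and Uqcrfs1 stays close to its mean in both genotypes.

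Likeness to the mean pattern of the 10 genes over the 6 libraries was computed for 3023 other tested genes averaging 10 FPKM or more. The nearest were Asb14 (r = 0.994), Echs1 (0.993), Atp5g2 (0.992), Atp5j (0.992) and Sdhd (0.991). Echs1 is an enzyme of fatty acid oxidation, Atp5g2 and Atp5j are subunits of ATP synthase, and Sdhd is a membrane anchor of complex II. Among the 10 genes, r with the same mean, to which each contributes, ran from 0.994 for Uqcrq to 0.37 for Uqcr11 and -0.058 for Cyc1. The 6 points share 2 genotypes and the library scale, so the values are descriptions.

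Genes that build complex III or process its imported precursors had mean FPKM below those of each of the 10 genes in both genotypes, at most 52.3 in Cfp1-cKO and 52.2 in WT hearts. Of 8 assembly genes tested, 1 rose, 0 fell and the median log2 fold change was 0.42, beside 0.35 over all tested genes. Calls in the lists of this paragraph are read against 21.1% of all tested genes called higher and 1.68% called lower. Uqcc3, which acts early on cytochrome b, rose to 34.98, 26.0 and 28.1 FPKM in Cfp1-cKO hearts, against 21.4, 17.2 and 19.5 FPKM in WT hearts. The groups stood apart, with a log2 fold change of 0.59 (adjusted p = 0.0386, limma), but after median-of-ratios scaling 0 of the 8 were called, and Uqcc3 was at 0.16. Of 5 genes that process the imported precursors or attach haem, 2 rose, Pmpca (1.01, adjusted p = 0.0302, limma) and Pmpcb (0.57, adjusted p = 0.0358, limma), both subunits of the matrix processing peptidase, and neither was called after median-of-ratios scaling (0.59 and 0.14), which turned the median of the 5 from 0.16 to -0.13. The 3 supercomplex factors, Cox7a2l, Higd1a and Higd2a, had log2 fold changes of -0.23, -0.22 and -0.15. After scaling to cardiomyocyte markers their median was 0.30, beside 0.77 over all tested genes. Of the 3, 0 passed limma's test or an unadjusted p below 0.05, also with voom. Leaving out 1 library left 0 assembly genes called, except 2 without WT replicate 3, and 0 processing genes without Cfp1-cKO replicate 1, Cfp1-cKO replicate 2 or WT replicate 1 and 1 without any of the other 3.

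Upstream of the complex, the substrate side was mixed. Calls as deposited in this paragraph are read against 21.1% of all tested genes called higher and 1.68% called lower. Of 12 genes of ubiquinone synthesis tested, 0 rose and 0 fell by limma, also with voom, with 3 higher at an unadjusted p below 0.05. Their median was -0.015. With the same sum per library it was 0.094 and 2 were called higher, against 3461 of 11017 tested genes. With scaling to cardiomyocyte markers it was 0.47 and 5 were called higher, against 7583 of 11017. After median-of-ratios scaling it was -0.40 and 1 was called lower, against 358 of 11017. Of 11 genes for enzymes that reduce ubiquinone, 4 fell and 0 rose, with a median of -0.35 (0.17 with scaling to cardiomyocyte markers). Prodh, proline dehydrogenase, had 2.82, 1.96 and 2.87 FPKM in Cfp1-cKO hearts, against 6.39, 5.87 and 5.87 FPKM in WT hearts, and fell by 1.00 on the log2 scale (adjusted p = 0.00763, limma). Sdhd had 332, 299 and 301 FPKM in Cfp1-cKO hearts, against 538, 547 and 469 FPKM in WT hearts, and fell by 0.73 (adjusted p = 0.0148, limma). Etfdh, which passes electrons from fatty acid oxidation to ubiquinone, fell by 0.67 (adjusted p = 0.0205, limma), and Sdha, the flavin subunit of complex II, fell by 0.53 (adjusted p = 0.0367, limma). In all 4 the groups stood apart, against 3.23% of all tested genes standing apart with Cfp1-cKO lower. With scaling to cardiomyocyte markers Prodh was the 1 gene called lower among the 11, and 2 were called higher. Over all 11017 tested genes 54 were then called lower and 7583 higher, with a median of 0.77. On the deposited scale without 1 library, the number of the 11 called lower was 1 (Cfp1-cKO replicate 2 or WT replicate 1 left out), 2 (Cfp1-cKO replicate 3) or 3 (any other). Over all tested genes it ran from 50 without Cfp1-cKO replicate 2 to 201 without WT replicate 3.

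On the apoptotic side, 3 of 11 partners of cytochrome c rose and 0 fell, against 21.1% of all tested genes called higher, with a median of 0.38 beside 0.35 over all tested genes. Bax, which opens the outer mitochondrial membrane, rose by 0.67 (adjusted p = 0.0319, limma), and Bcl2, which holds Bax back, rose by 0.64 (adjusted p = 0.0319, limma). After median-of-ratios scaling 0 of the 11 were called. With scaling to cardiomyocyte markers 10 were called higher, where 7583 of all 11017 tested genes were called higher. On the deposited scale the count was 0 without Cfp1-cKO replicate 2 or WT replicate 1, 1 without Cfp1-cKO replicate 3 and 2 without Cfp1-cKO replicate 1. Of 13 regulators of respiratory genes 0 were called by limma on FPKM, 1 by voom, and 1 was higher at an unadjusted p below 0.05. With scaling to cardiomyocyte markers 6 were called higher, against 7583 of 11017 tested genes. Ppargc1a, the coactivator of mitochondrial biogenesis, had 76.0, 42.6 and 28.2 FPKM in Cfp1-cKO hearts, against 19.5, 24.3 and 22.7 FPKM in WT hearts. The groups stood apart but the Cfp1-cKO values spread widely (log2 fold change 1.00, adjusted p = 0.0511, limma), and without Cfp1-cKO replicate 3 it was the 1 regulator called.

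Beside the other respiratory complexes, the median of the 10 genes, -0.44, lay between those of complex I and complex V. Nuclear subunits called lower numbered 5 of 35 for complex I, 2 of 4 for complex II, 5 of 15 for complex IV and 9 of 16 for complex V, against 1.68% of all tested genes, and 0 were called higher in these lists by limma or voom, with 1 (complex IV) higher at an unadjusted p below 0.05. With scaling to cardiomyocyte markers 0, 0, 1 and 1 were called lower and 1 gene of complex IV higher, against 54 lower and 7583 higher of all 11017 tested genes. In the same order, the median log2 fold changes of these lists were -0.28, -0.41, -0.44 and -0.64, beside 0.35 over all tested genes. With scaling to cardiomyocyte markers they were 0.25, 0.12, 0.088 and -0.11, beside 0.77. The largest differences were Cox6a2 (-1.43, adjusted p = 0.0113, limma) and Cox7b (-1.25, adjusted p = 0.00929, limma) of complex IV and Atp5j (-1.45, adjusted p = 0.00204, limma) and Atp5g1 (-1.07, adjusted p = 0.0027, limma) of complex V, all past that of Uqcrq. These 4 calls held without each library in turn, but with scaling to cardiomyocyte markers those of Cox7b (-0.71, adjusted p = 0.0831, limma) and Atp5g1 (-0.54, adjusted p = 0.118, limma) were lost. Without single libraries the counts ranged from 0 to 8 for complex I, from 2 to 7 for complex IV, from 4 to 11 for complex V and from 0 to 1 for complex II, each lowest without Cfp1-cKO replicate 2 or WT replicate 1 and, but for complex II, highest without WT replicate 3. Of 12 genes of the mitochondrial genome, mt-Atp8 fell (-1.04, adjusted p = 0.0101, limma), a call lost with scaling to cardiomyocyte markers (-0.53, adjusted p = 0.108, limma), where 0 of the 12 were called. The summed FPKM of the 9 complex III subunits over that of complex V was 0.641, 0.637 and 0.576 in Cfp1-cKO hearts, against 0.493, 0.497 and 0.481 in WT hearts. Over complex IV it was 0.501, 0.545 and 0.559 in Cfp1-cKO hearts, against 0.436, 0.423 and 0.484 in WT hearts. Both ratios were higher in every Cfp1-cKO library, while that over complex I overlapped, at 0.482 to 0.517 in Cfp1-cKO hearts and 0.507 to 0.527 in WT hearts. Cox6a2 had the highest WT mean of the complex IV genes, at 1848 FPKM, against 660 FPKM in Cfp1-cKO hearts. The ratio over complex IV without Cox6a2 was not computed, so its separation may rest on this gene and not on complex IV as a whole. The ratio of mt-Cytb to the 9 nuclear subunits overlapped as well, at 16.4 to 18.5 in Cfp1-cKO hearts and 14.9 to 16.6 in WT hearts.

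**Figure D5:**
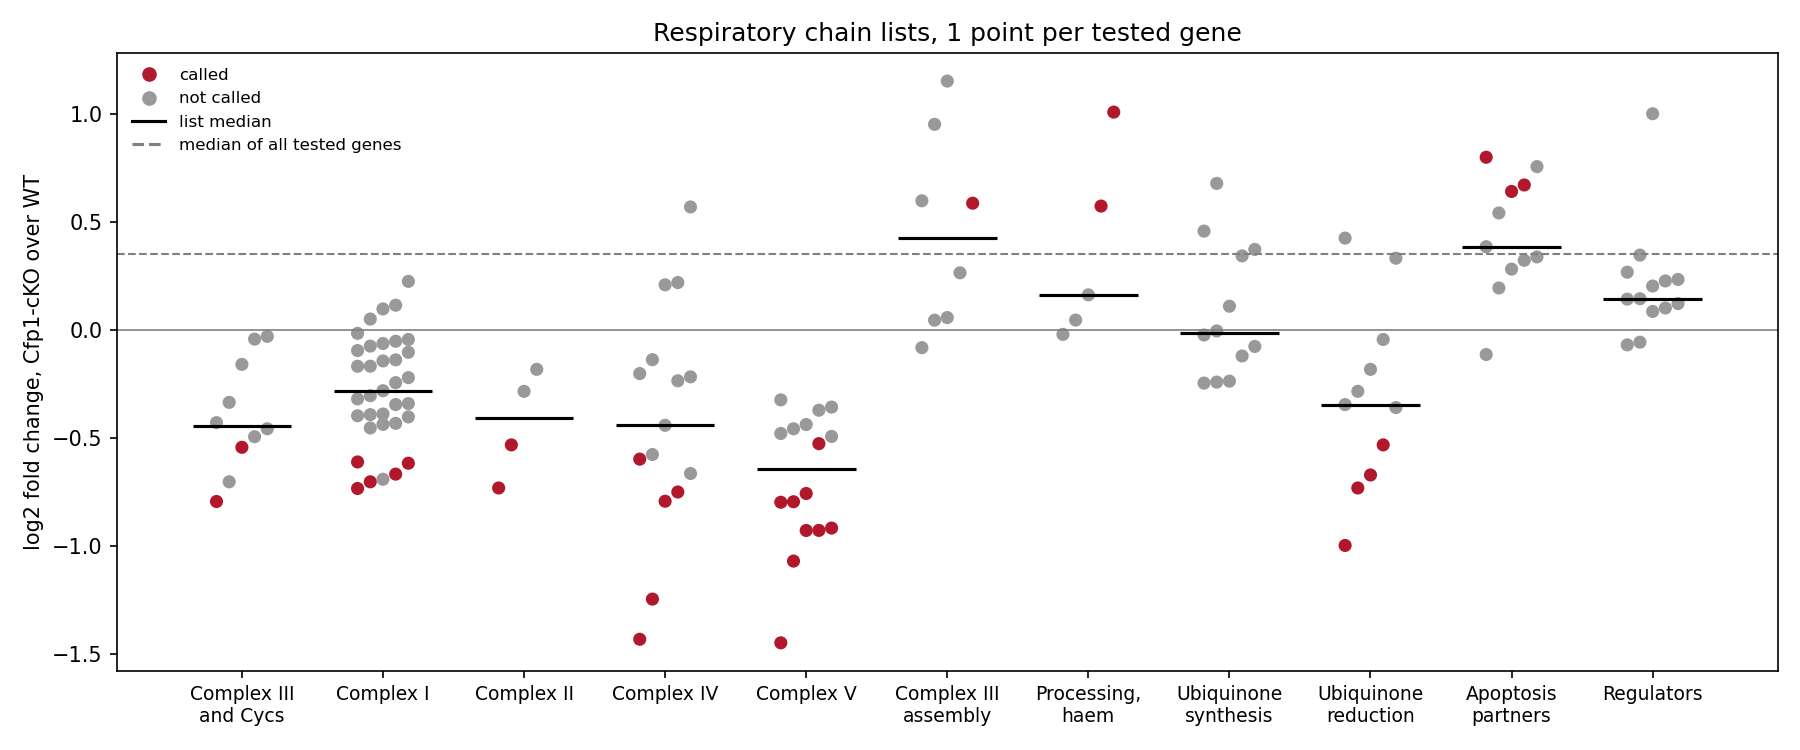
Log2 fold change, Cfp1-cKO over WT (vertical axis), of each tested gene of the respiratory lists (horizontal axis), with called genes in red, list medians as black bars and the median of all tested genes (0.35) as a dashed line. The 10 genes lie between -0.80 and -0.031, with a median of -0.44 beside -0.64 for complex V. With scaling to cardiomyocyte markers, not drawn, these medians were 0.090 and -0.11, and that of all tested genes was 0.77.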

How the data were processed

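The authors deposited FPKM per gene, unlogged, in a plain and an annotated table with identical values for all 26881 genes, so a count model was not the main test. The paper's methods name Bowtie2, TopHat and DESeq and a chicken genome address, and the submitters' processing notes name GRCm38, CASAVA, Bowtie2 2.2.3, HISAT2 2.1.0, TopHat2, HTSeq 0.6.0 and DESeq2. With GENCODE release 21 exon lengths, FPKM were whole fragments (tolerance 0.02) in all libraries for 89.2% of genes, which gave the library totals. Genotypes were compared with limma 3.58.1 (R 4.3.3, trend) on log2(FPKM + 1), for genes whose mean reached 1 FPKM. A call needed a log2 fold change beyond 0.5 in either direction and an adjusted p (Benjamini-Hochberg) under 0.05. Fold changes on this scale understate those of low genes. The fit was also run on simulated fragments, whose spread was set and not taken from these replicates. Its outcome is not given here and is not used as support. Replicates differed by more than sampling noise (chi-square per degree of freedom of 31.4 to 81.9). Named were the 10 genes, mt-Cytb, Cyct, Cxxc1, up to 3 called genes with the largest change per list and the 5 most alike genes; Sdha, Ppargc1a, the supercomplex factors, Lamp3 and the lung marker values were named beyond this rule after their values were seen. The values of 1 called gene of the apoptosis list are not reported here. The members, lists, tests and alternatives were chosen with earlier results of these data known. Alternatives covered pseudocount, filter, scaling, trend, library weights, replicate block, voom on recovered fragments, the fold threshold and each library left out. Python 3.11.15, numpy 2.4.6, pandas 2.3.3 and matplotlib 3.10.9 were used.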

Additional observations from a re-analysis of the deposited data

How the results depend on the processing

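Of 2510 genes called, the count was 1609 with no filter, 1179 at a mean of at least 5 FPKM, 769 after median-of-ratios scaling, 1559 with the same sum without mitochondrial and haemoglobin genes, 7637 with scaling to cardiomyocyte markers and 4399 with arrayWeights of limma. Leaving out each library gave 588 to 2789, with 588 without Cfp1-cKO replicate 2, 1086 without Cfp1-cKO replicate 3 and 680 without WT replicate 1. The share of calls that were higher was 92.6%, and 53.4% after median-of-ratios scaling. Of the 10 genes, 2 were called lower, 1 with no filter, 4 after median-of-ratios scaling, 1 with the same sum, 0 with scaling to cardiomyocyte markers and 4 with arrayWeights, which called Uqcrh and Uqcr10 besides Uqcrq and Cycs. Leaving out each library gave 0 to 3, and 0 were called higher in every alternative. Both pseudocounts, the fit without the trend, the replicate block, voom on recovered fragments and the fit without mitochondrial and haemoglobin genes gave 2.

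Signs turned with scaling to cardiomyocyte markers, where the log2 fold change was 0.035 for Uqcrc1, 0.37 for Uqcrc2, 0.50 for Cyc1, 0.10 for Uqcrfs1, 0.20 for Uqcrb, 0.076 for Uqcrh, 0.49 for Uqcr11, 0.30 for mt-Cytb, 0.23 for Cxxc1 and 8.57e-05 for Sdha. The median over all tested genes with that scaling was 0.77. With the same sum the log2 fold change was 0.087 for Cyc1 and 0.074 for Uqcr11. For Cyc1 it was 0.0036 with arrayWeights, 0.047 without Cfp1-cKO replicate 1 and 0.0097 without WT replicate 3, in a range from -0.085 to 0.047 without each library in turn. For Uqcr11 that range was -0.21 to 0.096, positive without WT replicate 2. The causes were not tested.

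With the replicate number as a replicate block, 1749 genes were called and the count of the 10 stayed at 2. Same-numbered libraries correlated in their deviations from the group means at 0.108, 0.0362 and 0.104, each library best with its own number, which is a hint from the data and not a statement of the design. With 3 libraries per genotype, differences of the size of a standard error cannot be told from the spread between libraries, and library totals are not the limit for genes at these levels.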
